A study of Mus musculus with 6 samples.

Results

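The sodium and chloride channels and the sodium pump of the muscle fibre membrane were described here through 5 genes, Scn4a, Scn4b, Clcn1, Atp1b1 and Atp1b2, among 20899 genes that could be tested. The genes were taken by name. Each of the 5 had 1 probe on the array, found through the RefSeq accession in the array files, and that probe was well above background on all 6 arrays. Total RNA came from the gastrocnemius muscle of 3 young male mice (13 weeks of age) and 3 aged male mice (26 months of age), each hybridised to its own single-colour Agilent array. The animals of the study were C57BL/6J mice on a standard diet, and the labels name no other treatment. Whole muscle was used, so a difference in the number of fibres or other cells cannot be told apart from a difference in RNA per cell, here and in every result.

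The sarcolemma, the membrane of a muscle fibre, carries the action potential from the nerve contact along the fibre and into the transverse tubules. Scn4a encodes the pore-forming alpha subunit of the sodium channel of adult skeletal muscle, which starts the action potential. Scn4b encodes a beta subunit that binds sodium channel alpha subunits and alters their gating. Clcn1 encodes the muscle chloride channel, whose current stabilizes the membrane after each action potential, and loss of it in mice and humans causes myotonia. The sodium pump restores the sodium and potassium gradients after activity. It consists of an alpha subunit, which hydrolyses ATP, a beta subunit, which brings the alpha subunit to the membrane, and often a small FXYD protein that adjusts its activity. Atp1b1 and Atp1b2 encode beta subunits.

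The 100 bases upstream of the RefSeq start are shown for the 4 genes for which a promoter was listed (GRCm38.p6, 5′ to 3′), to place the genes side by side before their values are given. Capitals mark matches on either strand to an E-box (CANNTG), a TATA box (TATAAA), a MEF2 site (CTA and TAG with 4 bases of any kind between them) or a CCAAT box (CCAAT).
Scn4a, chr11:106349391-106349490, minus strand: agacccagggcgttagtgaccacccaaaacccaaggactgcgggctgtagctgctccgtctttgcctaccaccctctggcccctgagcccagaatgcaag
Scn4b, chr9:45138524-45138623, plus strand: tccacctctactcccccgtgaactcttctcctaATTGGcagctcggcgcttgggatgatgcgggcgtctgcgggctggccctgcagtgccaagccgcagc
Clcn1, chr6:42286585-42286684, plus strand: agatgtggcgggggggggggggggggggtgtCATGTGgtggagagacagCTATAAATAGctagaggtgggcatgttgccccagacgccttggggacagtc
Atp1b1, chr1:164458356-164458455, minus strand: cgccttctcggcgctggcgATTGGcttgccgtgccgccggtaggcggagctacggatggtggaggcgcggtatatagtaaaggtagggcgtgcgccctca
The Clcn1 window held 1 E-box and 1 MEF2 site, and the TATA box lay inside the MEF2 site. Scn4b and Atp1b1 each held 1 CCAAT box, and the Scn4a window held none of the 4 motifs. Among 32851 promoter windows of this length, 34.5% held an E-box, 5.56% a TATA box, 1.18% a MEF2 site and 18.9% a CCAAT box. These matches describe the letters of the windows, and the arrays did not measure what binds there.

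All values below are log2 signals minus the 75th percentile of the same array, so that 0 is that percentile, and they are compared between mice and not between genes. The age groups were tested with limma over all 20899 genes with Benjamini-Hochberg adjustment, and a gene was called at an adjusted p under 0.05. None of the 5 genes was called (0 of 5), where 0.254% of all genes tested were called (53 genes) and 0.0574% were called lower in aged mice. The mean of each of the 5 was lower in aged mice, as was that of 56.9% of all genes, and the median difference was -0.38 for the 5 genes and -0.06 for all genes. At an unadjusted p under 0.05, where 14.4% of all genes lay, there was 1 of the 5, Scn4b. Scn4b was also the only 1 of the 5 whose groups did not overlap, with all aged mice lower, a pattern found in 13.9% of all genes, while 21.8% had groups without overlap in either direction. The arrays were on 1 slide, where the 3 young mice and aged mouse 1 lay in row 1 and aged mice 2 and 3 in row 2. The row and the age can be separated only through aged mouse 1, and its values are given beside each gene.

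**Figure D1:**
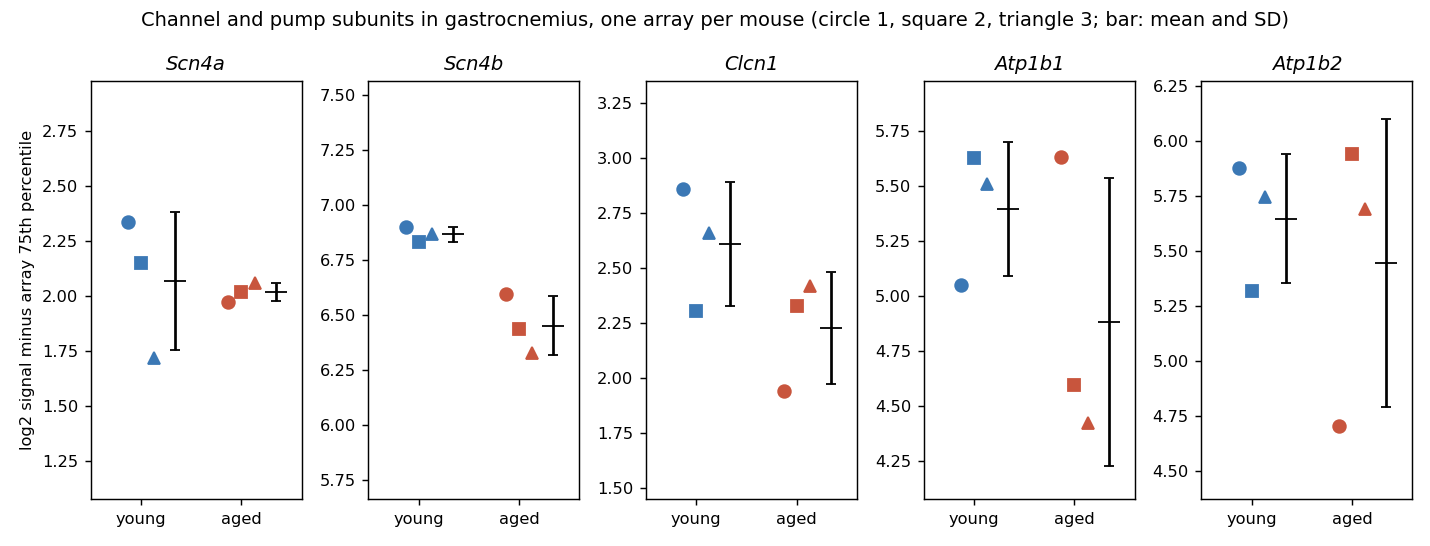
Log2 signal minus the 75th percentile of the array (y axis, the same span in each panel) in young (blue) and aged (red) mice, with 1 point per mouse and the mean ± SD of 3 mice as black bars. The groups are apart only for Scn4b, and aged mouse 1 (red circle) lies far from aged mice 2 and 3 for Atp1b1, above them, and for Atp1b2, below them.

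Scn4a (NM_133199) was 2.33, 2.15 and 1.72 in the young animals, here and below in the order of mice 1 to 3, and 1.97, 2.02 and 2.06 in the aged ones. All 3 aged mice lay within the range of the young mice and close to each other. The young mean was 2.07 ± 0.32 and the aged mean 2.02 ± 0.04 (SD, n = 3 each), a log2 difference of -0.05 (standard error 0.20, adjusted p = 0.921 from limma). The 95% interval of the ratio of aged to young mice ran from 0.697 to 1.34, so a moderate difference in either direction was not detectable with these mice. Without young mouse 1 the difference was 0.084, and with the slide row as a block it was -0.09.

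Scn4b (NM_001013390) was 6.90, 6.83 and 6.87 in young mice and 6.59, 6.43 and 6.33 in aged mice. No aged mouse reached the lowest young mouse, and the highest and lowest young mice were 0.068 apart. The young mean was 6.87 ± 0.03 and the aged mean 6.45 ± 0.13 (SD, n = 3 each). The aged level was 0.751 times the young level (log2 difference -0.41, standard error 0.15, 95% interval of the ratio 0.584 to 0.964). The unadjusted p was 0.0304 and the adjusted p was 0.299 from limma, so the difference did not hold after correction over all genes. An exact two-sided permutation test over the 6 arrays gave p = 0.1, the smallest value that 3 mice against 3 allow. With the slide row as a block, which leaves aged mouse 1 against the young mice, the log2 difference was -0.27. Genes with a bright probe had lower signals in aged mice in general. The median log2 difference was -0.14 over the 1509 genes with a mean log2 signal above 6, to which Scn4b belongs, and -0.04 over the 13608 genes up to 2. Among the 1509 bright genes the median was -0.27 for aged mouse 1, -0.02 for aged mouse 2 and -0.10 for aged mouse 3. Scn4b was thus at that median in aged mouse 1 and below it in aged mice 2 and 3, at -0.43 and -0.54 from the young mean. The part of this shift in the Scn4b value was not tested.

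Because the scaling of an array cancels between genes of 1 array, the log2 ratio of Scn4a to Scn4b was also compared. A shift that depends on brightness does not cancel. Its median was -0.05 over genes from 2 to 4, to which Scn4a belongs, and -0.14 over those above 6, with Scn4b. The ratio was -4.57, -4.68 and -5.15 in young mice and -4.62, -4.42 and -4.27 in aged mice. Aged mouse 1 lay among the young mice and the groups overlapped. The mean was higher by 0.36 in aged mice (exact two-sided permutation p = 0.2, adjusted p = 0.5 over 5 ratios computed, 3 of them given here). These values do not separate the alpha from the beta subunit.

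Other sodium channel genes were read from lists of 11 alpha and 4 beta subunit genes, Scn4a and Scn4b included. Of the 4 beta subunits, all tested, 3 had a lower mean in aged mice and only Scn4b had an unadjusted p under 0.05. Of the alpha subunits 6 could be tested and 0 were called, with 1 higher at an unadjusted p under 0.05 (6.07% of all genes) and 0 lower (8.36% of all genes). The gene that was higher was Scn2a, known as a neuronal sodium channel. It was -2.80, -2.57 and -2.11 in young mice and -1.36, -1.19 and -1.21 in aged mice, and its log2 difference was 1.24 (standard error 0.21, adjusted p = 0.0987 from limma). The groups did not overlap, but its 3 probes disagreed, at 1.24, 1.69 and -0.04, and the probe at 1.69 was well above background on only 3 of 6 arrays.

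Proteins that anchor the sodium channel or regulate it were read from a list of 13 genes. Of the 12 tested, 9 had a lower mean in aged mice, 4 at an unadjusted p under 0.05 (8.36% of all genes), and 0 were called. All aged mice were lower in 6 of the 12 (13.9% of all genes). The syntrophins link membrane channels to the dystrophin complex. The log2 difference was -0.96 for Sntb1 and -0.38 for Sntb2 (limma adjusted p = 0.162 and 0.322), without overlap of the groups. Sgk1, a kinase that raises the surface amount of sodium channels and of the sodium pump, was 6.23, 5.71 and 5.62 in young mice and 5.26, 4.59 and 5.24 in aged mice. All aged mice were lower (log2 difference -0.82, adjusted p = 0.254 from limma).

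Clcn1 (NM_013491) was 2.86, 2.31 and 2.66 in young mice and 1.94, 2.33 and 2.42 in aged mice. Aged mouse 1 was the lowest of the 6, while aged mice 2 and 3 were above young mouse 2, so the groups overlapped. The young mean was 2.61 ± 0.28 and the aged mean 2.23 ± 0.25 (SD, n = 3 each). The aged level was 0.769 times the young level (log2 difference -0.38, standard error 0.22, adjusted p = 0.464 from limma), and the 95% interval of the ratio ran from 0.537 to 1.1. The difference was -0.24 without aged mouse 1 and -0.67 within row 1 of the slide, where aged mouse 1 is the only aged animal. The log2 ratio of Clcn1 to Scn4a averaged 0.54 ± 0.39 in young mice, against 0.21 ± 0.21 among aged ones (SD, n = 3 each, exact two-sided permutation p = 0.3, adjusted p = 0.5), so the chloride channel and the sodium channel could not be separated either.

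The splicing of Clcn1 is known to depend on the muscleblind proteins, which the arrays measured as genes but not as splice forms. Mbnl1 was 5.28, 5.12 and 5.44 in young mice and 4.41, 4.999 and 4.74 in aged mice. All aged mice were lower, and the log2 difference was -0.57 (standard error 0.20, adjusted p = 0.294 from limma). Mbnl2 was 6.18, 5.69 and 5.80 in young mice and 6.04, 6.40 and 6.64 in aged mice, with a log2 difference of 0.47 (adjusted p = 0.390 from limma) and overlapping groups. Its other probes differed by 0.31 and 0.09. Of the 5 genes on this list 4 were tested and 0 were called, with 1 lower at an unadjusted p under 0.05.

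In the ClC family list of 11 genes 9 were tested and 7 had a lower mean in aged mice. None was called (0 of 9), and Clcn2, a broadly expressed chloride channel, was the only 1 at an unadjusted p under 0.05. Its log2 difference was -0.79 (adjusted p = 0.331 from limma) with overlapping groups, and its second probe gave -0.997. Of the 16 other chloride channel genes 14 were tested, 5 with a higher and 9 with a lower mean, and 0 were called. Ano5, a membrane protein whose loss causes muscular dystrophy in humans, was -2.64, -2.66 and -2.59 in young mice and -3.29, -3.52 and -4.00 in aged mice. The groups did not overlap (log2 difference -0.97, adjusted p = 0.149 from limma), and the probe was well above background on 5 of 6 arrays. The log2 difference was -0.63 for Ano1 and 0.86 for Clic4 (limma adjusted p = 0.304 and 0.232), and the second Clic4 probe gave 0.14.

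**Figure D2:**
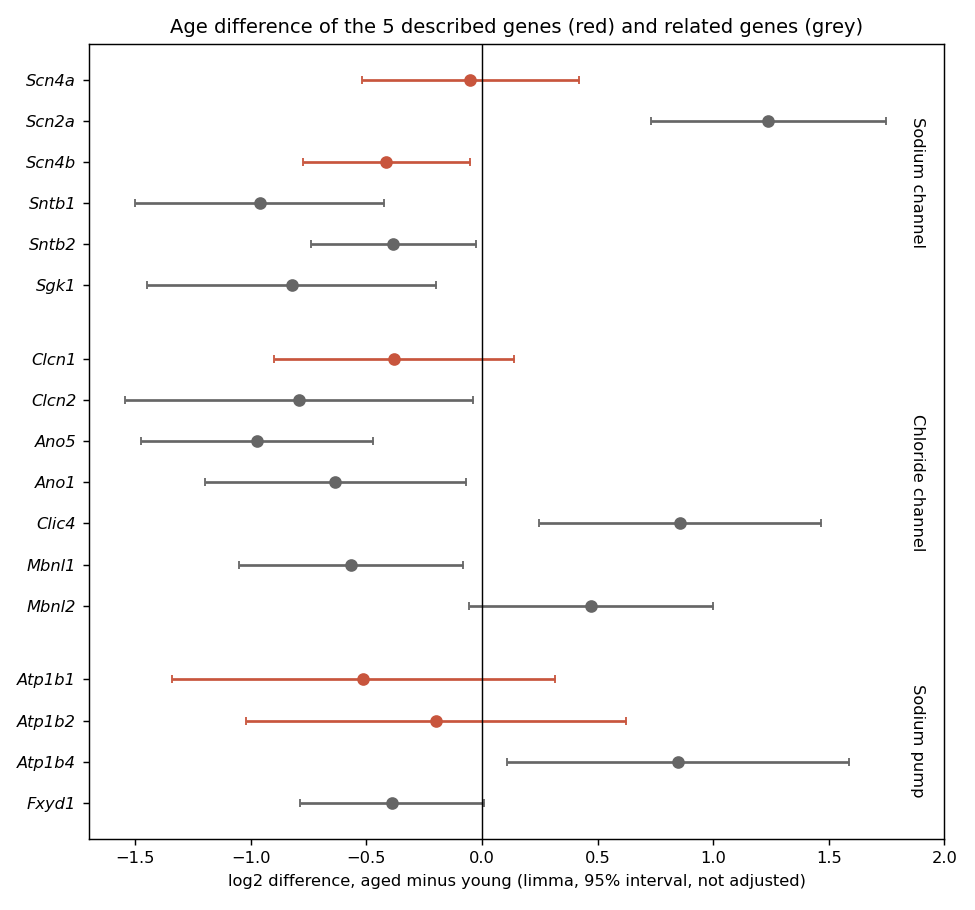
Log2 difference between aged and young mice (x axis, aged minus young) with its 95% interval from limma, for the 5 genes described here (red) and related genes (grey), of which all but Mbnl2 and Fxyd1 were picked for an unadjusted p under 0.05. The intervals are not adjusted for the number of genes, and none of the genes shown was called. Among the 5 genes only the interval of Scn4b, with a ratio of 0.584 to 0.964, leaves out no difference.

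Atp1b1 (NM_009721) was 5.05, 5.63 and 5.51 in young mice and 5.63, 4.59 and 4.42 in aged mice. Aged mice 2 and 3 were below every young mouse, while aged mouse 1 was as high as the highest young mouse. The young mean was 5.39 ± 0.30 and the aged mean 4.88 ± 0.65 (SD, n = 3 each). The aged level was 0.701 times the young level (log2 difference -0.51, standard error 0.35, adjusted p = 0.531 from limma), and the 95% interval of the ratio ran from 0.395 to 1.24. Without aged mouse 1 the log2 difference was -0.89 (unadjusted p = 0.00842, adjusted p = 0.138 from limma). Within row 1 of the slide, where aged mouse 1 is the only aged animal, it was 0.24.

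Atp1b2 (NM_013415) was 5.88, 5.32 and 5.74 in young mice and 4.70, 5.94 and 5.69 in aged mice. Here aged mouse 1 was the lowest of the 6, and aged mice 2 and 3 were within or above the range of the young mice. The young mean was 5.65 ± 0.29 and the aged mean 5.45 ± 0.65 (SD, n = 3 each). The aged level was 0.870 times the young level (log2 difference -0.20, standard error 0.35, adjusted p = 0.812 from limma), with a 95% interval of the ratio from 0.492 to 1.54. The difference was 0.17 without aged mouse 1 and -0.94 within row 1 of the slide (unadjusted p = 0.0179, adjusted p = 0.317 from limma with the row as a block).

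The log2 ratio of Atp1b1 to Atp1b2 was -0.83, 0.31 and -0.24 in young mice and 0.93, -1.35 and -1.27 in aged mice. Aged mouse 1 had the highest ratio of the 6 and aged mice 2 and 3 the lowest. The means were -0.25 ± 0.57 and -0.56 ± 1.29 (SD, n = 3), so the spread among aged mice exceeded the difference of -0.31 between the groups (exact two-sided permutation p = 0.8, adjusted p = 0.8). Over the 6 arrays the 2 genes had a Pearson correlation of -0.64, given as a description of these arrays.

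**Figure D3:**
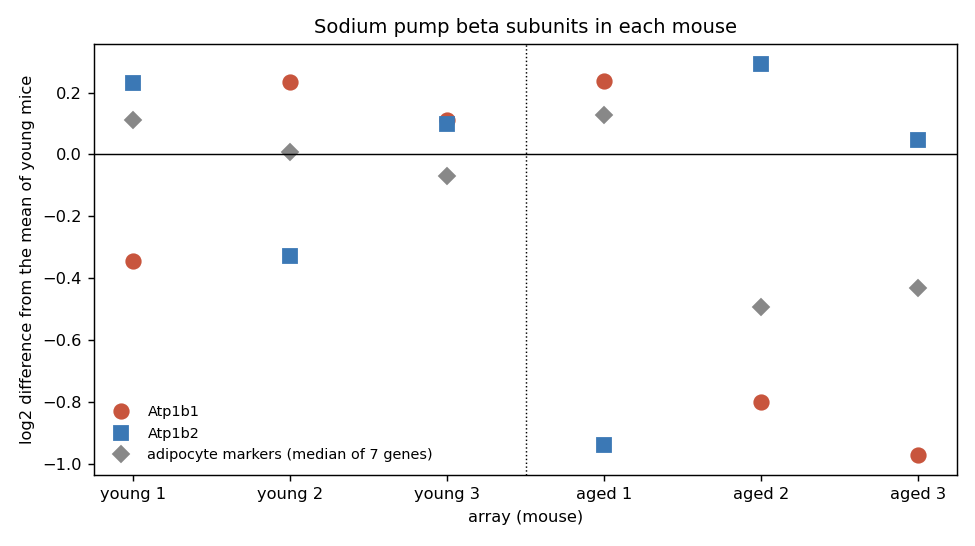
Log2 difference of Atp1b1 (red circles) and Atp1b2 (blue squares) from the mean of the 3 young mice (y axis) in each mouse (x axis), with the median of 7 adipocyte markers (grey diamonds). Atp1b1 is at 0.24 in aged mouse 1 and at -0.80 and -0.97 in aged mice 2 and 3. Atp1b2 is at -0.94 in aged mouse 1. Endothelial markers, whose median was also highest in aged mouse 1 among the aged mice, are not shown.

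Markers of other cells are given as sums of their signals, in which bright probes weigh most, and by the number of genes. The summed level of the 7 adipocyte markers tested was 257, 342 and 291 times the 75th percentile in young mice and 304, 171 and 182 times in aged mice, with aged mouse 1 among the young mice, as for Atp1b1. Aged mouse 1 was the highest of the aged mice in 6 of the 7, and 0 of the 7 were called. The order was not particular to fat cells. Aged mouse 1 was also the highest in 5 of 8 endothelial and 4 of 6 slow fibre markers, but in 0 of 7 fast fibre markers. The endothelial median was 0.11, -0.26 and -0.53 from the young mean in aged mice 1 to 3. For the adipocyte markers it was 0.13, -0.49 and -0.43. Lpl, the lipoprotein lipase of fat and muscle, was 6.80, 7.61 and 7.10 in young mice and 7.30, 5.91 and 5.87 in aged mice, a log2 difference of -0.81, while its second probe gave -0.26. Adipoq, a hormone of fat cells, was 2.05, 1.97 and 1.80 in young mice and 2.14, 1.45 and 1.51 in aged mice. Fabp4, the fatty acid binding protein of fat cells, was 6.38, 6.12 and 6.39 in aged mice and did not set aged mouse 1 apart. The part of fat cells, endothelial cells or slow fibres in the Atp1b1 value was not tested.

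The summed level of the 10 muscle fibre markers was 4907 times the 75th percentile in aged mouse 1, from 5989 to 6223 times in the other aged mice and from 5812 to 6726 times in young mice. The members were not uniform, since aged mouse 1 was the lowest of the aged mice in 7 of the 10, as for Clcn1 and Atp1b2, and the highest in 3. Acta1, skeletal muscle actin, was 9.74, 9.61 and 9.90 in young mice and 9.14, 10.07 and 10.001 in aged mice. Des, the intermediate filament protein desmin, was 7.15 in aged mouse 1, the highest of the 6. All 10 fibre markers were well above background on all 6 arrays, and 0 of them were called. Each had a mean log2 signal above 6, where the median of all genes in aged mouse 1 was -0.27 from the young mean. Among the fast fibre markers, some of them on both lists, aged mouse 1 was the lowest of the aged mice in 7 of 7. The part of these markers, or of the shift of bright genes, in the Clcn1 and Atp1b2 values was not tested.

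The sums of 4 further marker lists did not overlap between the age groups, as for Scn4b, although 0 of their genes were called. The same held for sodium channel beta subunits, Scn4b included, from 135 to 146 times in young and 103 to 118 in aged mice. It held for sodium channel partners (294 to 357 and 205 to 277 times) and pump beta subunits (96.3 to 106 and 80.4 to 92.0). FXYD genes ran from 588 to 751 times in young and from 441 to 558 times in aged mice, also without overlap. The sums of the other channel, pump and transporter lists overlapped. Bright probes weigh most in these sums, and genes with a mean log2 signal above 6 had a median difference of -0.14. How often sums of bright genes fail to overlap was not tested. All 6 slow fibre markers had a lower mean in aged mice, and their sums ran from 1309 to 1752 times the 75th percentile in young and from 791 to 1219 times in aged mice. All 6 erythrocyte markers had a lower mean in aged mice, with sums from 638 to 927 times in young and from 290.4 to 462 times in aged mice. For satellite cell and fibroblast markers the mean of 7 of 8 was lower, with sums from 375 to 424 and from 167 to 335 times, but Pax7, which marks satellite cells, differed by only -0.02. For endothelial markers the mean of 5 of 8 was lower, with sums from 93.1 to 127 and from 67.1 to 87.2 times, while the median of the 8 in aged mouse 1 was 0.11 above the young mean. The sums overlapped for macrophage markers, but the mean of 7 of 9 was higher in aged mice. All aged mice were higher in 6 (7.92% of all genes), and 4 were higher at an unadjusted p under 0.05 (6.07% of all genes). The median log2 difference was 0.64 and 0 were called. Fcgr1, in each count of higher genes, was well above background on 3 aged and 0 young arrays. It passed the filter only through the aged mice. Cd68 and C1qb, a lysosomal and a complement protein of macrophages, differed by 1.08 and 0.89. The sums also overlapped for fast fibre markers, 6 of 7 with a lower mean and 0 called, and for Schwann cell markers, from 26.4 to 46.1 times in young and from 25.9 to 43.0 times in aged mice. Of the 10 Schwann cell markers 8 had a lower mean in aged mice. Prx, a myelin protein, was called lower (1 of 10), with a log2 difference of -1.29 (adjusted p = 0.0428 from limma). Mbp, also a myelin protein, was higher in all aged mice, with a log2 difference of 1.33 (adjusted p = 0.0527 from limma). Its other probes gave 1.12 and -0.03. Of the 13 genes of a denervation response list 12 had a higher mean in aged mice. Of the 13, 11 were higher at an unadjusted p under 0.05 (6.07% of all genes), although 0 were called. Chrng, in both counts, was well above background on 3 aged and 0 young arrays, and so passed the filter only through the aged mice. Among the 13 genes, the log2 difference was 2.47 for Myog, a transcription factor, and 1.83 for Chrna1, an acetylcholine receptor subunit (limma adjusted p = 0.149 and 0.152). The part of these cells and genes in the Scn4b value was not tested.

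Of the 4 alpha subunits of the pump, all tested, 1 had a higher and 3 a lower mean in aged mice, and 0 were called or had an unadjusted p under 0.05.

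Among the beta subunits Atp1b4 was the only 1 at an unadjusted p under 0.05. It is a muscle protein related to the pump beta subunits that in mammals is found at the nuclear membrane and is not a pump subunit. It was -1.06, -0.66 and 0.0750 in young mice and 0.26, 0.0677 and 0.57 in aged mice, and the groups overlapped by young mouse 3 and aged mouse 2 alone. Its log2 difference was 0.85 (standard error 0.31, adjusted p = 0.299 from limma). Of the 7 FXYD genes 6 were tested, 5 with a lower mean in aged mice, and 0 were called. Fxyd1, phospholemman, the FXYD protein of heart and skeletal muscle, was 8.80, 8.96 and 9.19 in young mice and 8.58, 8.67 and 8.53 in aged mice. All aged mice were lower than the young ones (log2 difference -0.39, standard error 0.17, adjusted p = 0.357 from limma). Fxyd1 is among the genes with a mean log2 signal above 6, whose median difference was -0.14. Of the 12 cotransporters and exchangers for sodium or chloride, all were tested and 0 were called or had an unadjusted p under 0.05.

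Over the 10 lists of channels, pumps, their partners and transporters, 70 of 82 genes beside the 5 were tested, 47 with a lower and 23 with a higher mean in aged mice. None was called (0 of 70), and 15.7% had an unadjusted p under 0.05, against 14.4% of all genes. All aged mice were lower in 20.0% of them, against 13.9% of all genes, and all aged mice were higher in 5.71%, against 7.92% of all genes. The median log2 difference was -0.14, against -0.06 for all genes.

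The 5 genes did not all vary together across these mice. Pearson correlations over the 6 arrays were 0.10 for Scn4a with Scn4b and 0.72 for Scn4b with Atp1b1. Over all pairs of the 5 genes they ran from -0.64 for Atp1b1 with Atp1b2 to 0.79 for Clcn1 with Atp1b2. The genes most like each of them over the 6 arrays, among 12681 other genes with a symbol and a probe well above background on every array, were then listed by Pearson correlation. They were Cables2, Enpep and Ptpn1 for Scn4a, Nr2f1, Rbmx and Trim54 for Scn4b, and Map2k6, Gm6994 and Glod4 for Clcn1. For Atp1b1 they were Mylip, Mitf and Evc2, and for Atp1b2 they were Luc7l3, Hypk and Cox15. Each of these correlations was at least 0.977. Over 6 arrays such values are common, since 55 genes correlated above 0.9 with Scn4a and 598 with Scn4b.

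**Figure D4:**
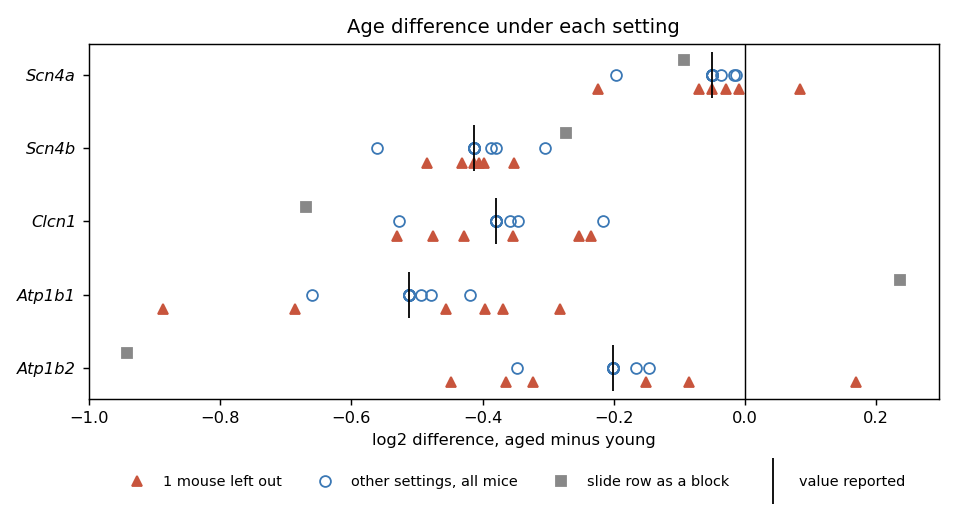
Log2 difference between aged and young mice (x axis) for each of the 5 genes under each processing setting, with the value reported (black line), settings that keep all mice (blue circles), the slide row as a block (grey squares) and 1 mouse left out (red triangles). Scn4b and Clcn1 stay below 0 in every setting shown, some of which could not change these values. Scn4a, Atp1b1 and Atp1b2 each have 1 setting above 0, at 0.084, 0.24 and 0.17.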

How the data were processed

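The deposited files are the Agilent Feature Extraction output of 6 single-colour arrays (version 11.0.1.1 per the file headers, 9.5 in the submitters' processing notes). The deposited processed signal is an intensity on a linear scale, which the authors' software corrected for background and detrended within the array, without scaling from array to array. The series matrix repeats these deposited intensities (largest log2 difference 0). The methods name no normalization or test for the arrays. Of 59305 spots that were not controls, 161 to 212 per array were flagged as outliers and left out, log2 values of a probe's spots were averaged, and each array's 75th percentile was taken off. No spot was saturated. Between 48.7% and 53.8% of probes were well above background on an array, and the number of arrays limits the precision. Accessions without version were matched to RefSeq (GRCm38.p6), which named 28325 of 55669 probes. The array was designed on another build, so no probe coordinates are given. A gene was represented by its brightest probe among probes that 3 or more arrays showed well above background. The test of age was limma 3.58.1 (lmFit, eBayes) run in R 4.3.3, with Benjamini-Hochberg adjustment over 20899 genes, and was tested on simulated data. The limma p-values set the age difference against the spread between mice, with each gene's variance drawn toward that of all genes. Each mouse had its own array, so the spread between mice includes that between arrays.

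The 5 genes, the gene lists, the tests and the alternatives were chosen with earlier results of these data known. The genes named are the 5, Fxyd1, Mbnl1, Mbnl2 and a few others set by name, every listed channel, pump or transporter gene with an unadjusted p under 0.05 (at most 6 a list), up to 3 genes of a marker list, and the 3 genes most correlated with each of the 5. Some genes that this rule names are not reported here. Alternatives tried were normexp (offset 50) applied to median spot signals, quantile and median scaling, the percentile taken over detected probes only, no or a stricter filter on dim probes, the mean of all probes, saturated probes included, the series matrix, a mean-variance trend, the slide row or the replicate number as a block, and each mouse left out.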

Additional observations from a re-analysis of the deposited data

How the results depend on the processing

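None of the 5 genes was called under any of the 18 alternatives (lowest adjusted p = 0.138 from limma, for Atp1b1 without aged mouse 1). Scn4b was lower in aged mice in all 18, from -0.56 with median scaling to -0.27 with the slide row as a block, and its unadjusted p ranged from 0.00942 to 0.226. It was -0.30 after quantile normalization, with an unadjusted p of 0.110. Clcn1 was lower in all 18, from -0.67 to -0.22. A changed filter, the mean of probes, saturated spots, the series matrix, the trend and the replicate block left the 5 differences as they were. These alternatives could not change a direction, so the count of 18 overstates how many settings were able to. Scn4a turned to 0.084 without young mouse 1, Atp1b1 to 0.24 with the slide row as a block, and Atp1b2 to 0.17 without aged mouse 1. The ratio of Atp1b1 to Atp1b2 lay between -1.06 and 0.079 when 1 mouse was left out, above 0 without aged mouse 2 (0.079) or 3 (0.041). With 1 mouse left out, Scn4a lay between -0.22 and 0.084, Scn4b between -0.48 and -0.35, Clcn1 between -0.53 and -0.24, Atp1b1 between -0.89 and -0.28 and Atp1b2 between -0.45 and 0.17. Median scaling moved the median of all genes from -0.06 to -0.21, and every gene by the same amount.

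The number of genes called, 53, was 8 with no filter on dim probes, 35 when detection on all 6 arrays was required and 5 with a replicate block, and between 1 and 199 with 1 mouse left out. It was 1 without aged mouse 3 and 199 without aged mouse 1. No sign of a pairing by replicate number was seen, since the deviations of same-numbered mice correlated at -0.06, -0.27 and 0.03. Of the 6 arrays, 0 correlated best with its own number, but so few arrays cannot show that no pairing exists. With the replicate block Scn4b stayed at -0.41 (adjusted p = 0.512 from limma), and the other 4 differences also kept their values. Each of the 5 genes had 1 probe, so no other probe could be compared, and the mean of all probes changed nothing for them.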
